A study of Saccharomyces cerevisiae with 22 samples.

Results

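The annotated origins of replication of the budding yeast genome were searched for binding of Sus1, a small protein shared by the histone deubiquitination module of the SAGA coactivator and by the TREX-2 mRNA export complex. A peak was counted as an origin peak when its summit, the base with the highest signal, lay inside an annotated origin or within 250 bp of it, over 200 bp from any tRNA gene and over 20 kb from a chromosome end. Of the 106828 peaks in the 6 deposited lists, 1712 met this rule. The rule left positions to search at 312 origins, out of 352 in the nuclear genome of the sacCer3 annotation. The other 40 had no position that the rule allows, and 20 of the 312 were cut in part.

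Sus1 was mapped by ChIP-exo, in which an exonuclease trims the crosslinked DNA up to the bound protein. The strains carried MYC-tagged Sus1 (SUS1-MYC::HIS3) in the BY4741 background. The 6 lists came from spt7 mutant cells at 37 °C and at 25 °C, from spt8Δ cells at 37 °C and at 25 °C, and from wild-type cells at 37 °C and at 25 °C. Cells grew to mid-log phase in YPD at 25 °C, and those of the 37 °C lists were given a heat shock of 15 min. Spt7 and Spt8 are subunits of SAGA. In the spt7 mutant the Spt7 protein lacks its C-terminal end by the study's methods, although the sample labels call the strain spt7-deletion, and in spt8Δ the whole gene was removed. Both mutants carry the KanMX4 marker, and all strains carry the tag and the leu2, his3, met15 and ura3 alleles of BY4741.

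Each strain and temperature had 1 peak list, so no spread between replicates could be measured and no test was made. The intervals given are 95% intervals that cover counting error only. The labels name 3 replicates of each condition and libraries of untagged cells. Which libraries went into a list is not given in the sources used here, and the untagged libraries were not analysed here. The lists held 16593 to 20179 peaks. The lowest local background of a list, in reads at a summit, was 36.3 and 22.2 in the spt7 mutant at 37 and 25 °C, 28.8 and 7.99 in spt8Δ at 37 and 25 °C, and 5.98 and 10.8 in wild-type cells at 37 and 25 °C, so that both lists of the spt7 mutant and the spt8Δ list at 37 °C lay above both wild-type lists. The coding region of SPT8 held no summit in any of the 6 lists and does not tell the strains apart. The end of SPT7 that the truncated protein lacks held 0 summits in both spt7 mutant lists, against 2 in the wild type at 37 °C and 0 in the wild type at 25 °C. LEU2, deleted in all strains, held 1 summit in the spt8Δ list at 25 °C.

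Replication of yeast chromosomes starts at short autonomously replicating sequences (ARS). The origin recognition complex (ORC) binds their T-rich ARS consensus sequence through much of the cell cycle, and Cdc6 and Cdt1 then help it to load the Mcm2-7 helicase. Origins lie mostly between genes, in AT-rich DNA that is poor in nucleosomes. Sus1 and SAGA are known from gene promoters and from coding regions of some genes, and not as part of the replication machinery. SAGA acetylates histones at promoters and removes ubiquitin from histone H2B in transcribed regions.

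The sequences show how AT-rich these elements are. An exact copy of the ARS consensus sequence (both strands searched, 11 letters) occurred in 100 of the 312 origins, or 32.1%, against 1.39% of all stretches of 238 bp of the permitted genome. Among the 44 origins annotated as putative, only 1 held a copy (2.27%), which was ARS1612, against 99 of the other 268 (36.9%). Of the 100 origins with a copy, 96 held a single one. The origins named in the text that hold a single copy are printed on their T-rich strand, with 10 bp on either side and the consensus in capitals. The first 4 had a summit in all 6 lists, and the rest are much studied origins.
ARS213 (chr2:389220-389250, minus strand): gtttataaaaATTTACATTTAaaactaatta
ARS604 (chr6:127859-127889, plus strand): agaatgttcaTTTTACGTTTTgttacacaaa
ARS1612 (chr16:261578-261608, minus strand): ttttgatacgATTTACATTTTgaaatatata
ARS214 (chr2:408025-408055, minus strand): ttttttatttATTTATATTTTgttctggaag
ARS306 (chr3:74511-74541, plus strand): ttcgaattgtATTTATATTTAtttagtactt
ARS307 (chr3:108950-108980, minus strand): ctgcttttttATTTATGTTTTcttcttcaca
ARS315 (chr3:224854-224884, plus strand): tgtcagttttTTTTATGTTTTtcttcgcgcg
ARS317 (chr3:292664-292694, minus strand): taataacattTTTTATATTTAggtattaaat
ARS1 (chr4:462586-462616, minus strand): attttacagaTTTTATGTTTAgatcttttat
ARS1200-1 (chr12:459048-459078, minus strand): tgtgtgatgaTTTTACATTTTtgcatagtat
The G+C share of these 31-bp stretches ran from 9.68% in ARS213 and ARS317 to 35.5% in ARS315. ARS1 is annotated at chr4:462567-462622, and its whole feature is shown with the consensus in capitals, read from the plus strand. ARS305 and ARS607, both early and efficient origins, held no exact copy and are given in lower case.
ARS1 (chr4:462567-462622, plus strand): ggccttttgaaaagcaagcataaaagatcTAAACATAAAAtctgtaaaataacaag
ARS305 (chr3:39508-39595, plus strand): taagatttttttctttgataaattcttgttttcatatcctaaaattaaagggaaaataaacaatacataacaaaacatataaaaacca
ARS607 (chr6:199395-199505, plus strand): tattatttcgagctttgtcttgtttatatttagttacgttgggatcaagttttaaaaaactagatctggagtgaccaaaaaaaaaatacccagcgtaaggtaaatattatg
The peak stretches shown next, which are longer, had G+C shares from 35.6% in ARS213 to 42.3% in ARS313. The following 5 stretches were each covered by a chain of overlapping peaks from all 6 lists and belong to origins that ranked among the 10 strongest found in every list. The capitals run from the first to the last of the summits.
ARS1202 (chr12:30382-30591, plus strand): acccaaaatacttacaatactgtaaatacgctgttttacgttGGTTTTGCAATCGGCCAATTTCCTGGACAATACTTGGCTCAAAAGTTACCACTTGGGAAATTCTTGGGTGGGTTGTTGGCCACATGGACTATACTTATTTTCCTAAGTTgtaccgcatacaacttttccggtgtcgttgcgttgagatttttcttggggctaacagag
ARS313 (chr3:194025-194296, plus strand): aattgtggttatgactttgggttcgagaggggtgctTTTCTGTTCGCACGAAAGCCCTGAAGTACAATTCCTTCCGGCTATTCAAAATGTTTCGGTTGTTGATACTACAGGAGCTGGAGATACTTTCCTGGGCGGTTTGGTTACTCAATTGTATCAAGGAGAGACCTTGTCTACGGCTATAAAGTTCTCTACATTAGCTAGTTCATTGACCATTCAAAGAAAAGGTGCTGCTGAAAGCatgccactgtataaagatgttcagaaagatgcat
ARS213 (chr2:390190-390411, plus strand): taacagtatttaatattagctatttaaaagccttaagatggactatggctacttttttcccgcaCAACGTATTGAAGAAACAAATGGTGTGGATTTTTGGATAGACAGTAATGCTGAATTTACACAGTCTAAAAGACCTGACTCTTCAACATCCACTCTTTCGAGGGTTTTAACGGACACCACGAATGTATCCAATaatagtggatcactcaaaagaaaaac
ARS604 (chr6:127553-127792, plus strand): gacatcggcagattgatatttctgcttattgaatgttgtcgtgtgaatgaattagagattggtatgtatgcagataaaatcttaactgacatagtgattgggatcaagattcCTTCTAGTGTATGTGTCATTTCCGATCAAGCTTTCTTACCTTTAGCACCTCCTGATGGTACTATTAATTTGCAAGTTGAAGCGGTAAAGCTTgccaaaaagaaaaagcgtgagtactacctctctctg
ARS214 (chr2:408010-408222, plus strand): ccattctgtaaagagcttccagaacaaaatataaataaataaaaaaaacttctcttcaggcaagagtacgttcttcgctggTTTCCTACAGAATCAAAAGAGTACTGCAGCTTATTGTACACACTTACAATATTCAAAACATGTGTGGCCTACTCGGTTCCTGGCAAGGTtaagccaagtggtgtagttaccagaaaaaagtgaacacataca
In ARS604, ARS213 and ARS214 the stretch of summits did not include the consensus. In ARS214 the consensus is in lower case near the left end, read from the other strand, and in ARS604 it lay to the right of the last summit. The ARS604 stretch is coding DNA of BLM10, which codes for a proteasome activator.

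The first question was whether origins held more Sus1 summits than their base composition would give. Origin windows covered 231272 of the 11301974 bp that the rule allows, or 2.05%. The median G+C share was 34.7% for the DNA around window positions and 31.7% inside the origins, against 38.6% over all permitted positions. Summits were rare in AT-rich DNA in every list. Where the G+C share within 50 bp on either side was under 25%, all permitted positions held 0.0126 summits per kb in the spt7 mutant at 37 °C and 0.173 per kb in the wild type at 37 °C. Between 40 and 45% G+C, the same lists held 2.50 and 1.91 summits per kb. Positions under 25% G+C made up 9.83% of the origin windows, against 2.10% of all permitted positions.

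**Figure D1:**
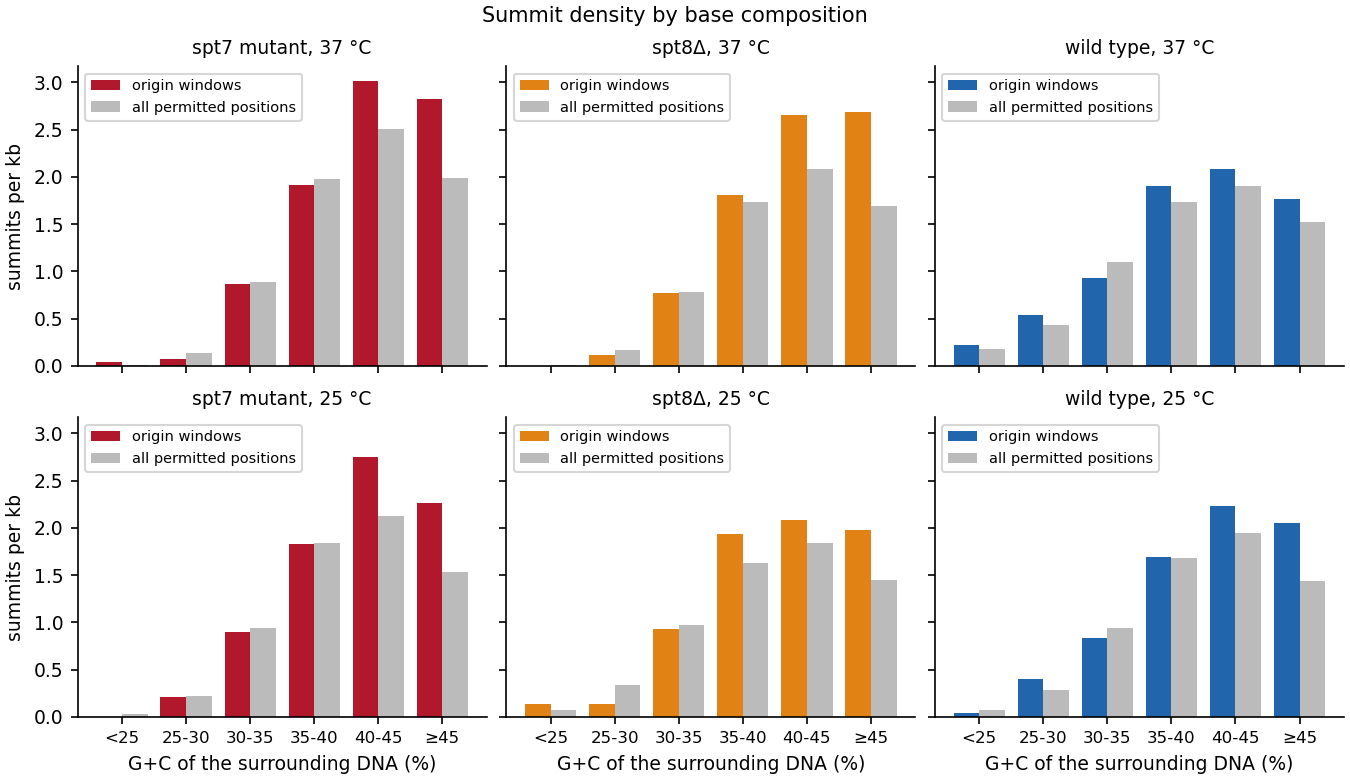
Summits per kb (y axis) at positions grouped by the G+C share of the surrounding DNA (x axis), for origin windows (coloured bars) and all permitted positions (grey bars) in the 6 lists. In every list density was lowest under 25% G+C, and the windows followed the grey bars up to 40% G+C.

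Without regard to composition, origins held fewer summits than other DNA. The number observed was 0.78 and 0.83 of the number expected in the spt7 mutant at 37 and 25 °C, 0.84 and 0.85 in spt8Δ at 37 and 25 °C, and 0.84 and 0.82 in wild-type cells at 37 and 25 °C. Once each summit was spread evenly over all permitted positions of its own composition, the ratios were near 1. The spt7 mutant list at 37 °C held 307 origin summits against 285.0 expected, a ratio of 1.08 (0.96 to 1.20). At 25 °C it held 292 against 265.5, a ratio of 1.10 (0.98 to 1.23). In spt8Δ at 37 °C there were 282 against 247.8, a ratio of 1.14 (1.01 to 1.28), and at 25 °C there were 274 against 250.1, a ratio of 1.10 (0.97 to 1.23). The wild type held 288 against 273.7 at 37 °C, a ratio of 1.05 (0.94 to 1.18), and 269 against 252.0 at 25 °C, a ratio of 1.07 (0.95 to 1.20). All 6 ratios were above 1, and the counting interval left out 1 only in spt8Δ at 37 °C.

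The size of this difference followed the way composition was matched. Matched also on whether a position lay in a coding region, the ratios were 1.18 and 1.22 in the spt7 mutant at 37 and 25 °C, 1.21 and 1.16 in spt8Δ, and 1.11 and 1.16 in the wild type, and the interval held 1 only in the wild type at 37 °C (0.99 to 1.24). With composition taken over 150 bp on either side, they were 0.95 and 0.97 in the spt7 mutant, 1.00 and 0.99 in spt8Δ, and 0.96 and 0.96 in the wild type, and every interval held 1. Over these matches origin windows held 0.95 to 1.22 times the summits of DNA of like composition.

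**Figure D2:**
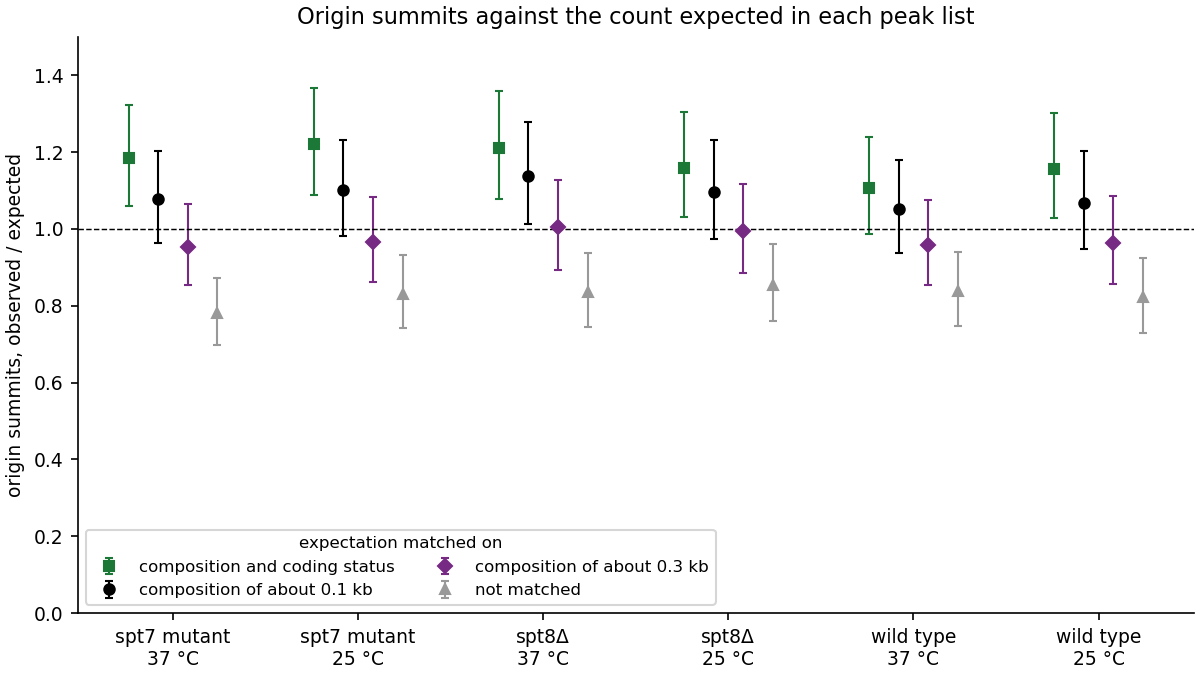
Observed over expected origin summits (y axis) in each list (x axis) under 4 ways of setting the expectation, with 95% counting intervals as bars. The unmatched ratios lie between 0.78 and 0.85, and the composition-matched ratios (black circles) between 1.05 and 1.14.

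In 3 of the 4 mutant lists the ratio was below 1 inside the origins, with intervals that held 1, and above 1 in the flanks, with intervals that did not. Inside the annotated origin the spt7 mutant list at 37 °C held 63 summits, 0.87 of expectation (0.68 to 1.11), and in the flanks 244, or 1.15 times expectation (1.01 to 1.30). At 25 °C it held 57 inside, 0.81 of expectation (0.63 to 1.05), and 235 in the flanks, 1.20 times (1.06 to 1.37). The spt8Δ list at 37 °C held 52 inside, 0.81 (0.62 to 1.06), and 230 in the flanks, 1.25 times (1.10 to 1.42). In spt8Δ at 25 °C both ratios were 1.09 and 1.10, with 75 summits inside and 199 in the flanks. The wild type at 37 °C had 77 inside, 1.00 times expectation, and 211 in the flanks, 1.07 times. At 25 °C the wild type had 64 inside, 0.94 of expectation, and 205 in the flanks, 1.11 times. The intervals inside and in the flanks did not overlap in the spt7 mutant at 25 °C and in spt8Δ at 37 °C, and they overlapped in the other 4 lists. Matched also on coding, they overlapped in these lists too, with 0.74 to 1.24 inside and 1.15 to 1.48 in the flanks in the spt7 mutant at 25 °C, and 0.69 to 1.19 inside and 1.15 to 1.49 in the flanks in spt8Δ at 37 °C. The ratio inside was then 1.02 in the spt7 mutant at 37 °C.

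At the edge of the rule there was no step. The outermost 50 bp of the windows held 40 to 53 summits in a list, 0.91 to 1.32 times expectation, with median strengths at percentiles 41.6 to 63.2 of their lists. The next 50 bp beyond held 39 to 54 summits, 0.87 to 1.26 times expectation, with medians at percentiles 41.6 to 49.99.

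Many origin summits were in the genes beside the origin. Coding DNA made up 37.5% of the windows, against 74.5% of all permitted positions. Of the origin summits, 60.9% and 56.8% lay in coding regions in the spt7 mutant at 37 and 25 °C, 57.8% and 55.8% in spt8Δ, and 52.1% and 55.8% in the wild type. Over all permitted peaks the share ran from 81.8% in the wild type at 37 °C to 86.1% in the spt7 mutant at 25 °C. Coding positions of the windows held 1.13 to 1.25 times the summits expected from composition, and noncoding positions held 0.91 to 1.02 times. This order depended on the match. With coding matched as well, coding positions held 1.15 and 1.13 times expectation in the spt7 mutant at 37 and 25 °C, 1.197 and 1.18 in spt8Δ, and 1.09 and 1.11 in the wild type. Noncoding positions held 1.24 and 1.37 times in the spt7 mutant, 1.23 and 1.13 in spt8Δ, and 1.13 and 1.22 in the wild type, so that they were the higher in all lists but spt8Δ at 25 °C.

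Among origins that lie between genes, the 104 between convergent genes had the highest ratios to the composition expectation in all 6 lists. Matched also on coding, they did so in 4 lists, with 1.10 against 1.16 for tandem genes in spt8Δ at 25 °C and 1.23 against 1.25 for divergent genes in spt8Δ at 37 °C. They held 106 and 100 summits in the spt7 mutant at 37 and 25 °C, 1.29 (1.07 to 1.56) and 1.31 (1.08 to 1.59) times expectation. In spt8Δ they held 85 and 78, or 1.19 (0.97 to 1.47) and 1.08 (0.86 to 1.34) times, with 1.07 for tandem genes at 25 °C. The wild type had 96 and 89, or 1.20 and 1.22 times. The 139 origins between tandem genes had ratios of 0.93 to 1.13, and the 50 between divergent genes, which share their DNA with promoters, had 0.82 to 1.12. The 19 origins whose centre lies in a gene had 0.98 to 1.40. The 44 origins annotated as putative, identified in array studies, held 71 summits in spt8Δ at 25 °C, 1.42 times expectation (1.12 to 1.79), and 52 to 54 in each of the other lists, 0.88 to 1.06 times.

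Close to the ARS consensus all lists held few summits, fewer than expected in all but the wild type at 25 °C. The mutant lists held the fewest. Within 50 bp of the consensus of the 96 origins with a single copy, the spt7 mutant had 0 summits at 37 °C, against 3.73 expected, or 2.71 with coding matched as well, and the upper 95% bound of a count of 0 is 3.69. It had 1 at 25 °C, against 4.04 expected. The spt8Δ lists had 1 at 37 °C, against 3.43 expected, and 1 at 25 °C, against 4.40. The wild type had 2 at 37 °C, against 5.35 expected, and 5 at 25 °C, against 4.21. The 4 mutant lists together held 3 summits where composition gave 15.6, and the 2 wild-type lists held 7 where it gave 9.55. The G+C share was lowest at the consensus, 27.0% on average over the 50 bp that follow it, so few summits were expected there. With composition taken over 150 bp on either side, the ratios of observed to expected were 0 and 0.12 in the spt7 mutant at 37 and 25 °C, 0.13 and 0.12 in spt8Δ, and 0.22 and 0.62 in the wild type, where the ratio at 25 °C had been 1.19.

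In the mutant lists the gap was wider on the side that follows the T-rich strand. From 50 to 100 bp after the consensus, the wild type held 5 summits at 37 °C and 3 at 25 °C, against 3.86 and 3.30 expected. In the stretch from 50 bp before to 100 bp after the consensus, chosen after its values were seen, the spt7 mutant had 0 summits at 37 °C and 2 at 25 °C, against 6.96 and 7.34 expected. In spt8Δ there were 2 at 37 °C and 2 at 25 °C, against 6.34 and 7.78. The wild type had 7 at 37 °C and 8 at 25 °C, against 9.21 and 7.51. Summed, the mutant lists held 6 against 28.4 expected and the wild-type lists 15 against 16.7. With coding matched as well, 22.4 and 14.1 were expected. The counting interval of the ratio left out 1 in the spt7 mutant at 37 °C (0 to 0.53) and 25 °C (0.033 to 0.98) and in spt8Δ at 25 °C (0.031 to 0.93). Matched also on coding, it left out 1 only in the spt7 mutant at 37 °C (0 to 0.72), and reached 1.30 in the spt7 mutant at 25 °C and 1.08 in spt8Δ at 25 °C. With composition alone it held 1 in spt8Δ at 37 °C (0.038 to 1.14) and, for the wild type, at 37 °C (0.31 to 1.57) and 25 °C (0.46 to 2.10).

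Just before the consensus, in a stretch also chosen after its values were seen, the mutant lists held more summits. From 100 to 51 bp before it, the spt7 mutant held 11 and 7 summits at 37 and 25 °C, against 4.19 and 4.10 expected, and spt8Δ held 7 and 8, against 3.71 and 4.001. The wild type held 3 at both temperatures, against 4.48 and 3.97. Summed, this was 33 summits against 15.99 expected in the mutants and 6 against 8.46 in the wild type. The counting interval of the ratio left out 1 only in the spt7 mutant at 37 °C (1.31 to 4.70). It held 1 in the spt7 mutant at 25 °C (0.69 to 3.52) and in spt8Δ at 37 °C (0.76 to 3.89) and 25 °C (0.86 to 3.94). Around the 582 exact copies outside origin windows the same stretch held 1.30 times expectation in both the mutant and the wild-type lists, while within 50 bp of those copies there were 0.81 times in the mutants and 0.90 times in the wild type. The mutant lists at 37 °C and the spt7 mutant at 25 °C had higher backgrounds than the wild-type lists, while the background of spt8Δ at 25 °C lay between those of the wild-type lists. The part of depth in these counts was not tested.

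**Figure D3:**
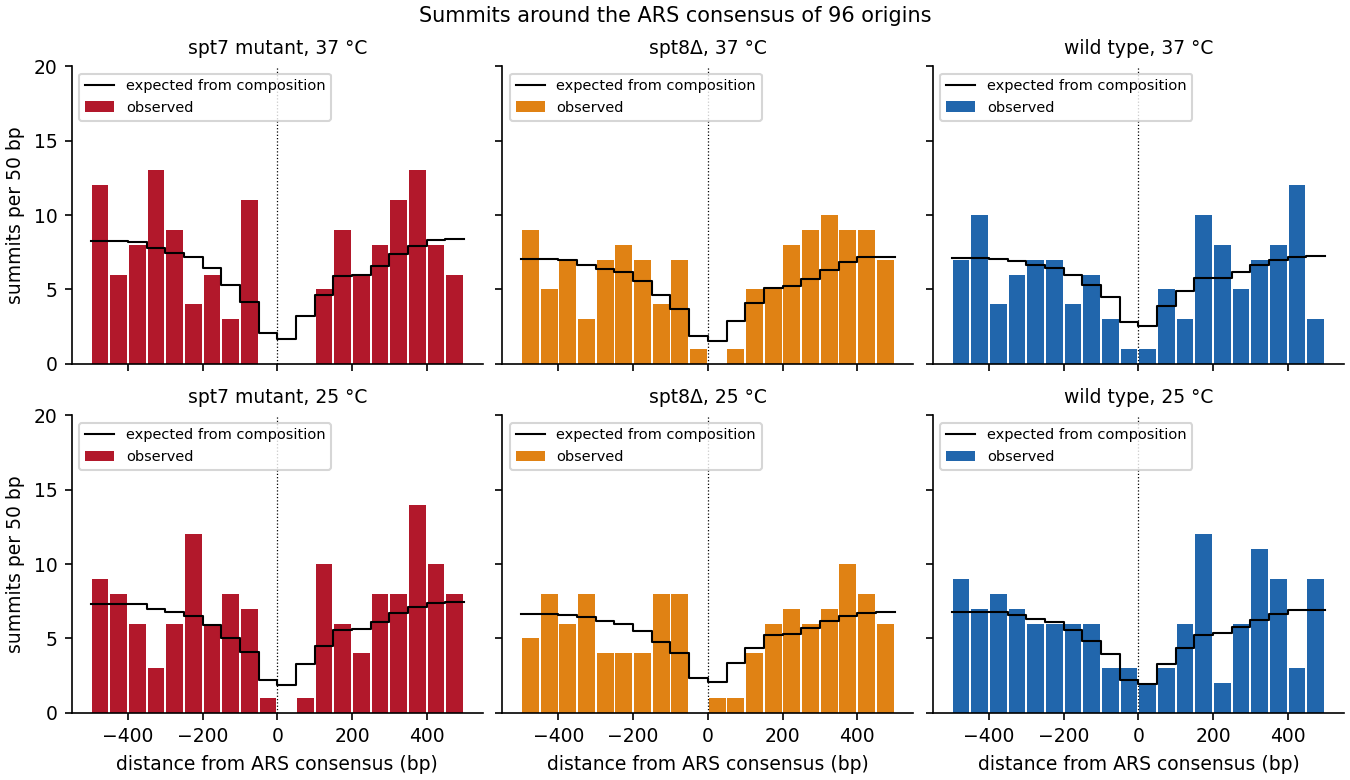
Summits per 50 bp (bars) by distance from the ARS consensus (x axis, in bp, positive in the direction of its T-rich strand) in 96 origins, with the count expected from base composition as a line. Mutant bars are at 0 or 1 from 50 bp before to 100 bp after the consensus, and wild-type bars reach 5 there.

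Origin peaks were of average strength. Strength is given as the percentile of a peak's fold enrichment within its own list, because fold enrichments depend on the background of the list. The median origin peak lay at percentile 49.9 in the spt7 mutant at 37 °C (44.4 to 55.4) and at 43.2 at 25 °C (34.8 to 48.5). It lay at 49.97 (44.4 to 56.6) and 47.4 (40.3 to 54.4) in spt8Δ at 37 and 25 °C, and at 52.8 (46.5 to 57.1) and 53.7 (46.6 to 60.5) in the wild type. Over all permitted peaks the medians ran from 49.0 to 50.2. Only the interval of the spt7 mutant at 25 °C lay wholly below these. In that list the origin peaks outside coding regions had a median at percentile 32.7 (27.2 to 39.3). Over the 6 lists these noncoding medians ran from 32.7 to 51.97. No median of all permitted noncoding peaks is given here, so whether the low value is particular to origins was not tested. The share of origin peaks in the top 10% of their list was 11.4% and 8.56% in the spt7 mutant at 37 and 25 °C, 10.99% and 8.76% in spt8Δ, and 7.29% and 11.2% in the wild type, against 8.73 to 9.30% of all permitted peaks.

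**Figure D4:**
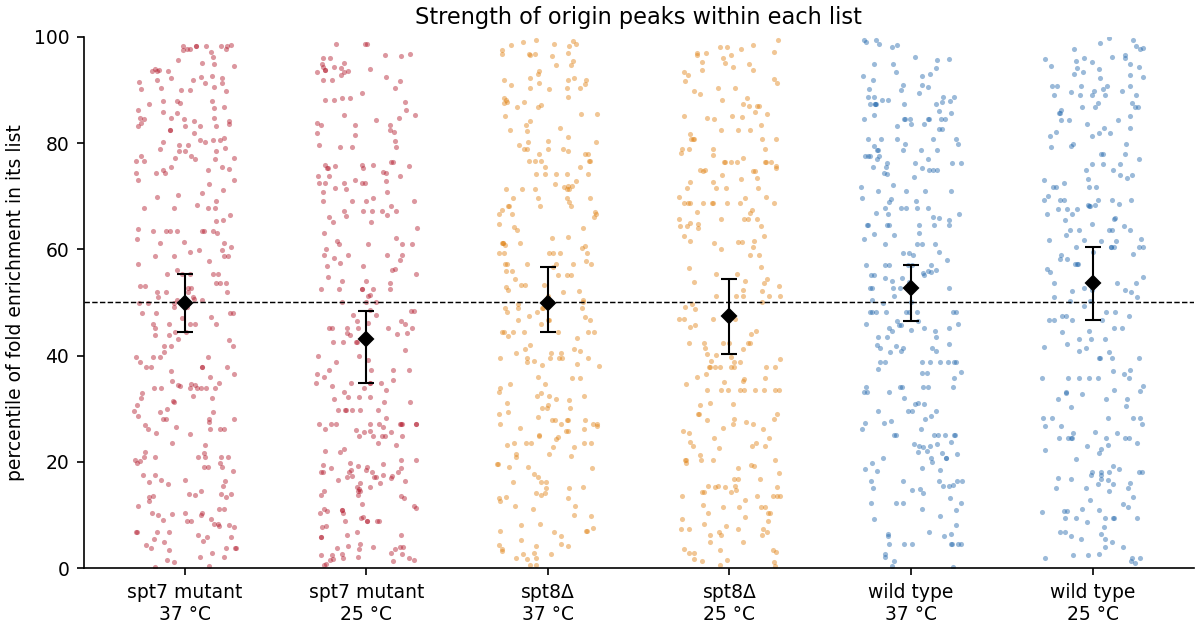
Percentile of fold enrichment (y axis) of each origin peak within its list (points, spread sideways for clarity), with the median and its 95% interval in black, for the 6 lists (x axis). The medians lie between 43.2 and 53.7, and the dashed line marks 50.

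Under 30% G+C the lists differed more. The windows held 4 and 9 summits there in the spt7 mutant at 37 and 25 °C and 5 and 9 in spt8Δ, against 28 and 18 in wild-type cells at 37 and 25 °C. Over all permitted positions of that composition the counts were 120 and 194 in the spt7 mutant, 140 and 303 in spt8Δ, and 407 and 253 in the wild type. Peaks in the most AT-rich DNA were thus fewer in 3 of the mutant lists than in both wild-type lists across the genome, and in all 4 at origins.

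At least 1 summit was found in the windows of 189 and 195 of the 312 origins in the spt7 mutant at 37 and 25 °C, 184 and 178 in spt8Δ, and 190 and 185 in the wild type. These are 60.6% (55.1 to 65.8) and 62.5% (57.0 to 67.7) in the spt7 mutant, 59.0% (53.4 to 64.3) and 57.1% (51.5 to 62.4) in spt8Δ, and 60.9% (55.4 to 66.1) and 59.3% (53.8 to 64.6) in the wild type. Of all stretches of 734 bp in the permitted genome, the median window length, 68.4% and 65.6% held a summit in the spt7 mutant, 63.6% and 64.5% in spt8Δ, and 67.8% and 64.9% in the wild type. From composition alone, 51.8 to 56.2% of the origins would have held a summit. The observed shares were 4.35 to 8.16 percentage points above that, and the counting interval left out 0 in the spt7 mutant at 25 °C, spt8Δ at 37 °C and the wild type at 25 °C.

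By the number of lists with a summit, 23 origins had none, 24 had summits in 1 list, 34 in 2, 55 in 3, 64 in 4, 64 in 5 and 48 in all 6. The 48 are 15.4% of the origins (11.8 to 19.8), against 26.1% of all stretches of 734 bp in the permitted genome. These stretches were not matched on base composition. No share expected from composition is given here for all 6 lists, so these shares do not tell whether origins differ from DNA of like composition. The windows of the 48 had a median length of 776.5 bp, against 621 bp for the 23 without a summit, and 16 of the 48 are putative origins, which have long annotated features. Overlapping peaks of the lists chained into 792 sites at origins. Of these, 50, or 6.31% (4.82 to 8.23), held peaks of all 6 lists, against 4.88% of all 39065 sites. Not every peak of such a site was an origin peak. The site at ARS1410 held 16 peaks, of which 1 was an origin peak. A site with peaks of all 6 lists thus need not hold an origin summit from each. The part of site length in this share was not tested. The summits of these 50 sites spanned 88 to 720 bp, with a median of 209.5 bp. Coding DNA made up most of 35 of the sites, and 14 held no coding base.

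The origin with the strongest peaks in all 6 lists by the naming rule was ARS1324 (chr13:634501-634588), between the ends of HSC82 and YMR187C. HSC82 codes for the largely constitutive Hsp90 chaperone. Its strongest origin peak lay at percentiles 98.3 and 96.6 in the spt7 mutant at 37 and 25 °C, with fold enrichments of 4.59 and 4.70. In spt8Δ it lay at 99.0 and 92.0, with 6.10 and 5.45, and in the wild type at 99.3 and 78.0, with 9.46 and 3.99. The percentile was higher at 37 °C than at 25 °C in all 3 strains. At 37 °C the strongest summit lay inside the origin or at most 199 bp to its right, in the wild type in coding DNA of YMR187C. At 25 °C the summits were at 634442, 634431 and 634436 in the spt7 mutant, spt8Δ and the wild type, within the end of the HSC82 coding region (chr13:632355-634472). The end of HSC82 also held strong peaks at 37 °C, at percentiles 98.3, 98.6 and 92.6 in the same order.

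ARS1202 (chr12:30209-31384) is a putative origin that covers the gene YCT1, a cysteine transporter. Its percentiles were 98.3 and 94.3 in the spt7 mutant at 37 and 25 °C, 92.3 and 68.8 in spt8Δ, and 84.5 and 96.0 in the wild type. Up to 6 summits of a list fell in its window of 1676 bp. ARS313 (chr3:194308-194367) lies between the ends of RBK1, a ribokinase, and PHO87, a phosphate transporter. It had percentiles of 69.2 and 82.5 in the spt7 mutant, 92.3 and 99.3 in spt8Δ, and 78.6 and 86.8 in the wild type, each with 37 °C before 25 °C. All 3 strains had the lower value at 37 °C, but the strongest summits did not always lie at the same place. In the spt7 mutant they were at 194064 at 37 °C and at 194516 at 25 °C. Within the ARS313 stretch printed above, spt8Δ had the higher value at 37 °C, 86.8 against 68.8. There the spt7 mutant had 69.2 and 79.2 and the wild type 78.6 and 86.8, lower at 37 °C.

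ARS213 (chr2:389212-390371) reached into ECM8 and had percentiles of 74.3 and 75.2 in the spt7 mutant, 77.9 and 91.2 in spt8Δ, and 89.9 and 98.9 in the wild type. The next origins were ARS1228 over BDF1, which codes for a bromodomain protein associated with TFIID, ARS1322 over FDO1, ARS604 over BLM10, ARS1612 between PEP4 and RAD53, ARS1221 over GSP1, which codes for the yeast Ran GTPase, and ARS214 between UBC4 and TEC1. Their means over the lists ran from percentile 82.6 for ARS1228 to 77.0 for ARS214. Of the 10 origins, 5 are annotated as lying within a gene. ARS1228, ARS1322, ARS1612 and ARS1221 are annotated as putative, as is ARS1202. The windows of these putative origins were 1135 to 1695 bp long, against a median of 734 bp over all origins. The part of window length in this ranking was not tested. The lowest values of single origins were 43.6 for ARS1228 in spt8Δ at 37 °C and 46.0 for ARS1221 in the spt7 mutant at 37 °C.

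**Figure D5:**
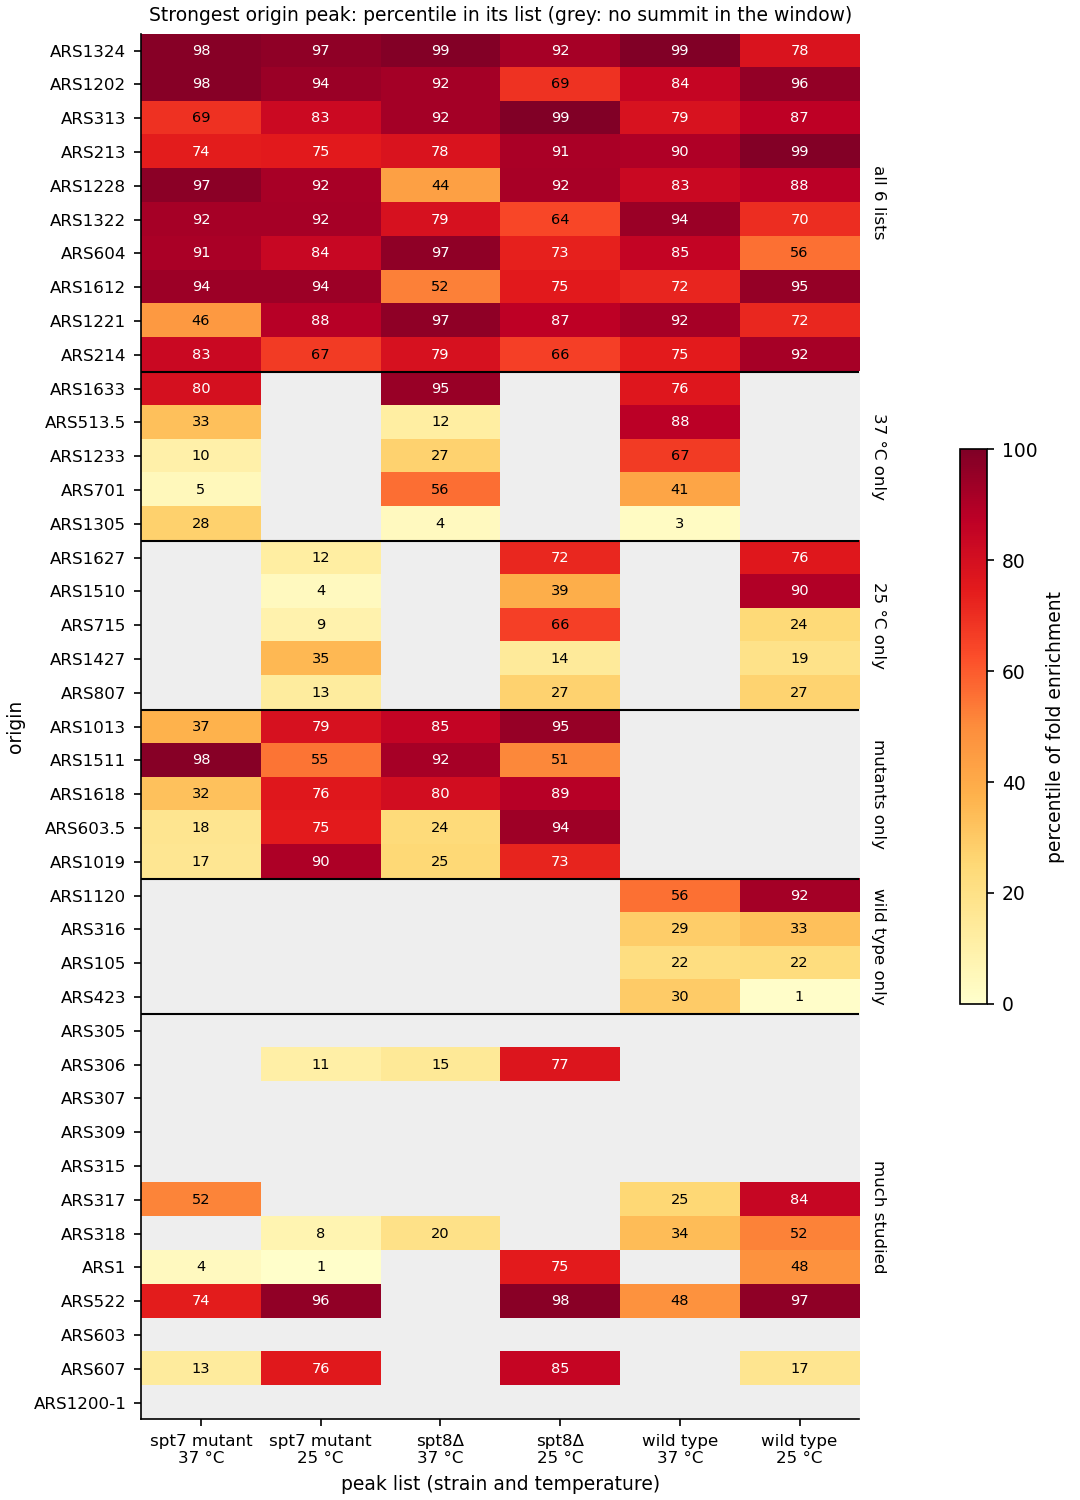
Percentile of the strongest origin peak (numbers and colour) for the named origins (rows) in the 6 lists (columns), grouped by the pattern that named them. Grey cells had no summit in the window, and 6 of the 12 much studied origins are grey throughout.

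The origin peak with the highest fold enrichment in the wild type at 25 °C lay in SCR1, a gene that the naming rule does not cover and that was chosen after its values were seen. SCR1 (chr5:441987-442508) codes for the RNA of the signal recognition particle, is transcribed by RNA polymerase III and runs into ARS519 (chr5:442416-442735). Summits within SCR1 counted as origin peaks in spt8Δ at 37 °C, with a fold enrichment of 6.76 and percentile 99.2, and in wild-type cells at 37 °C, with 9.01 and 99.1, and at 25 °C, with 10.02 and 99.8. In the other lists the SCR1 peak had its summit just before the gene, at 441986 and 441985 in the spt7 mutant at 37 and 25 °C and at 441983 in spt8Δ at 25 °C, which is over 250 bp from the origin. Those peaks had fold enrichments of 17.0, 10.1 and 14.6. The peak was thus in all 6 lists, and the distance limit decided which of its summits were counted.

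The second question was what heat shock changed. In the spt7 mutant, 50 origins had a summit at 37 °C and not at 25 °C, and 56 had the reverse. The counts were 65 and 59 in spt8Δ, and 60 and 55 in the wild type. These 6 counts are 16.03 to 20.8% of the origins, against 11.9 to 18.3% of all stretches of 734 bp in the permitted genome. Each share was above that of the stretches with the same change. The widest gap was at 25 °C alone in the spt7 mutant, 17.9% against 11.9%. The narrowest was at 37 °C alone in the wild type, 19.2% against 18.3%. The stretches were not matched on base composition. A summit in all 3 strains at 37 °C and in none at 25 °C was found at 5 origins, and the reverse at 5, each 1.60% of the origins (0.69 to 3.70). Over all stretches of that length the shares were 0.894% and 0.795%, and both lie within the interval. Of the origin peaks in the spt7 mutant, 46.9% at 37 °C had a 25 °C peak over them, against 45.5% of all permitted peaks, and 50.7% at 25 °C had a 37 °C peak over them, against 51.6%. In spt8Δ the overlap was 34.4% at 37 °C, against 37.5% of all permitted peaks, and 36.9% at 25 °C, against 40.4%. For the wild type the shares were 29.5% against 33.1% at 37 °C and 31.6% against 34.4% at 25 °C. The differences from all permitted peaks ran from 3.57 points below to 1.44 points above, and every counting interval held 0. These shares were not matched on coding. Outside coding regions, 42.5% (34.02 to 51.4) of the spt7 mutant origin peaks at 37 °C had a 25 °C peak over them. Of all permitted noncoding peaks of that list, 33.85% did, a share just outside the interval. In the other temperature comparisons the noncoding interval held the share of all permitted noncoding peaks.

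Of the 5 origins with summits at 37 °C alone, ARS1633 (chr16:456563-456810), between the ends of LEE1 and KTR6, was the strongest. It lay at percentile 79.6 in the spt7 mutant, 94.7 in spt8Δ and 76.2 in the wild type. ARS513.5 had percentiles of 33.0, 11.8 and 87.8 in the same order, ARS1233 had 10.03, 27.0 and 66.9, and ARS701 had 4.978, 56.0 and 41.5. ARS1305, the weakest, stayed under percentile 30 in all 3. The 5 origins with summits at 25 °C alone were ARS1627, ARS1510, ARS715, ARS1427 and ARS807. Of these, ARS1627 (chr16:819160-819399) had percentiles of 12.0 in the spt7 mutant, 71.6 in spt8Δ and 76.0 in the wild type, and ARS807 stayed under 30 in all 3. Most of these peaks were thus among the weaker ones of their lists.

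The third question was what the SAGA mutations changed. At 37 °C, 59 origins had a summit in the spt7 mutant and not in the wild type, and 60 the reverse, while for spt8Δ the counts were 49 and 55. At 25 °C they were 59 and 49 for the spt7 mutant, and 59 and 66 for spt8Δ. These 8 counts are 15.7 to 21.2% of the origins, against 13.3 to 17.5% of all stretches of 734 bp, which were not matched on composition. Here too each share was above that of the stretches with the same difference. The widest gap was for the wild type without the spt7 mutant at 37 °C, 19.2% against 14.2%. For the wild type without spt8Δ at 37 °C the shares were closest, 17.6% against 17.5%. Origin peaks overlapped wild-type peaks of the same temperature in 38.4% of cases in the spt7 mutant at 37 °C, against 37.9% of all permitted peaks, and in 35.6% at 25 °C, against 39.7%. In spt8Δ the shares were 34.0% at 37 °C, against 39.2%, and 32.8% at 25 °C, against 35.3%. In reverse, wild-type origin peaks overlapped spt7 mutant peaks in 41.3% of cases at 37 °C, against 44.8%, and in 37.2% at 25 °C, against 42.9%. They overlapped spt8Δ peaks in 32.6% of cases at 37 °C (27.5 to 38.3), against 39.5%, and in 35.7% at 25 °C, against 34.4%. The share of wild-type origin peaks found in spt8Δ at 37 °C differed from that of all permitted peaks by -6.90 points (-12.1 to -1.29), and the other 7 intervals held 0. Among peaks outside coding regions the same shares were 26.1% (19.5 to 34.0) for origin peaks and 31.4% for all permitted ones.

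There were 7 origins with summits in all 4 mutant lists and in neither wild-type list, or 2.24% (1.09 to 4.56), against 1.15% of all stretches of 734 bp, and 4 with the reverse pattern, or 1.28% (0.50 to 3.25), against 0.795%. Both background shares lie within the interval. The strongest of the first kind were ARS1013, ARS1511, ARS1618, ARS603.5 and ARS1019. ARS1013 (chr10:375706-376227) had percentiles of 37.1 and 79.2 in the spt7 mutant at 37 and 25 °C and 85.4 and 95.2 in spt8Δ. ARS1511 (chr15:277530-277778), between YOL024W and IFM1, had 98.2 and 54.7 in the spt7 mutant and 91.9 and 51.2 in spt8Δ. Its strongest peak thus ranked higher at 37 °C in both, although in spt8Δ the summits lay apart, at 277380 and 277761. The origins with summits in the wild type alone were ARS1120, ARS316, ARS105 and ARS423. ARS1120 (chr11:612378-612463), between SRL3 and SRP40, had percentiles of 55.7 at 37 °C and 92.4 at 25 °C, and none of the other 3 passed 33.0.

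The much studied origins were often without a summit. The annotation gives 12 of those listed, ARS416 under its older name ARS1, and 6 of the 12 had no summit in any list, against 23 of all 312 origins (7.37%). They were ARS305, ARS307, ARS309 and ARS315 on chromosome 3, ARS603 on chromosome 6 and ARS1200-1 in the ribosomal DNA. From composition, the windows of the 6 would have held 26.8 summits over the 6 lists. The window of ARS307 (chr3:108727-109060) alone would have held 7.71, and that of ARS305 2.81. Over all 12 there were 27 summits against 49.5 expected, a ratio of 0.55, while all 312 origins had 1.09 times their expectation. A set of 7 origins counted for annotation of early firing, high efficiency or high activity, 6 of them in this list, had 12 summits against 26.5 expected. ARS603.5, annotated as activated early in S phase in about 50% of cell cycles, was not among the 7. It held 4 summits against 3.63 expected. The list of much studied origins was drawn up by hand, and its low count is a description of these origins. ARS1200-1 lies in repeated DNA, and how reads that map to several places were treated is not given in the sources used here.

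ARS1, between TRP1 and GAL3, had a weak summit in both spt7 mutant lists, at percentile 3.83 at 37 °C and 0.58 at 25 °C. In spt8Δ it had none at 37 °C and 1 at percentile 74.8 at 25 °C, and in the wild type none at 37 °C and 1 at percentile 48.2 at 25 °C. No summit fell inside the ARS1 feature shown above. ARS522 (chr5:549566-549814), a late origin between DMC1 and ISC10, was the strongest of the list. It lay at percentiles 74.3 and 96.4 in the spt7 mutant at 37 and 25 °C, at 98.0 in spt8Δ at 25 °C with no summit at 37 °C, and at 48.2 and 96.5 in wild-type cells at 37 and 25 °C. The value at 37 °C was the lower, or missing, in all 3 strains. In the spt7 mutant the strongest summits lay apart, at 549362 at 37 °C and at 549832 at 25 °C. ARS607 had summits in both spt7 mutant lists, in spt8Δ at 25 °C and in the wild type at 25 °C, with its strongest summits outside the feature. ARS317, which is part of the HMR-E silencer, and its neighbour ARS318 had summits in 3 and 4 of the lists, and ARS306 in 3.

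The genes that code for the initiation proteins were looked at as a set. Their upstream regions held summits about as often as those of all genes. Of 31 genes, a summit within 500 bp upstream of the start codon was found for 13 and 12 in the spt7 mutant at 37 and 25 °C, against 40.8% and 38.0% of all 6002 protein-coding genes. For spt8Δ there were 15 and 14, against 40.2% and 41.8%, and for the wild type 14 and 14, against 44.8% and 39.7%. The shares of the 31 genes, 38.7 to 48.4%, had wide counting intervals, and each held the share of all genes. MCM3, a subunit of the Mcm2-7 helicase, and POL1, the catalytic subunit of DNA polymerase alpha, had a summit there in all 6 lists. MCM2, another helicase subunit, PRI1, the small subunit of primase, and DPB2, a subunit of DNA polymerase epsilon, had none in any list. Of the ORC genes, ORC3 and ORC5 had summits in 4 lists, ORC2 and ORC4 in 3, and ORC1 and ORC6 in 1.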

How the data were processed

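Sus1 was mapped by ChIP-exo, and the 6 deposited peak lists, of 1 strain and temperature each, were the input. Each was matched to its group through the strain and temperature in its own name. The submitters' processing notes name CASAVA 1.7, BWA 0.6.2 and sacCer3, while the study's methods give an earlier BWA version. Peak calling, the control and how libraries were combined are not given in the sources used here, and the column layout is that of MACS2. For each peak the authors deposited the fold enrichment, a ratio of summit signal to local background, the −log10 p value, a −log10 q score and the distance of the summit from the peak start.

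Origins, 275 tRNA genes and coding regions came from the RefSeq annotation of sacCer3. Background and height in reads were solved from fold enrichment and −log10 p under a Poisson model, to within 0.01 in −log10 p. Expected counts came from counting every permitted position in bins of 5 G+C bases over 50 bp on either side, without random draws. Intervals are Wilson for shares and for ratios of counts to expectation, exact Poisson around the consensus, and binomial order statistics for medians. Overlap meant at least 1 bp. The steps were tested on simulated data and run with Python 3.11.15 (numpy 2.4.6; pandas 2.3.3; scipy 1.17.1; matplotlib 3.10.9).

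Origins were named if among the up to 10 with a summit in all 6 lists and the highest mean percentile, the up to 5 strongest of each temperature or strain pattern, or a hand-drawn list of much studied origins. Replication genes were named if they had an upstream summit in all lists or in none. The members and lists were chosen with earlier results of these data known. Alternatives changed the matching, the window, the distance from tRNA genes, the peak threshold, the summit definition and the overlap. The libraries of untagged cells were not analysed here.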

Additional observations from a re-analysis of the deposited data

How the results depend on the processing

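Of 186 values recomputed under other settings, 161 stayed within the counting interval of the reported value and 25 did not. Ratios of observed to expected origin summits without matching were 0.78 and 0.83 in the spt7 mutant at 37 and 25 °C, 0.84 and 0.85 in spt8Δ, and 0.84 and 0.82 in the wild type. With composition over 150 bp on either side they moved in the spt7 mutant at 37 °C (0.95) and 25 °C (0.97) and in spt8Δ at 37 °C (1.00). With the origin feature alone they were 0.87 and 0.81 in the spt7 mutant, 0.81 in spt8Δ at 37 °C and 0.94 in the wild type at 25 °C. Among the 5000 strongest peaks of a list they rose to 1.33 in the spt7 mutant at 37 °C and 1.21 in the wild type at 37 °C. The share of origins with a summit, less the expected share, was -2.07 and -3.34 points in the spt7 mutant, -3.53 in spt8Δ at 37 °C and -0.53 in the wild type at 25 °C with the feature alone, and 1.00 in the spt7 mutant at 25 °C among the 5000 strongest peaks. Among those peaks the overlap of origin peaks, less that of all permitted peaks, was -9.51 points for spt8Δ at 25 °C in spt8Δ at 37 °C, 1.13 for spt8Δ in the wild type at 37 °C and -0.66 for the reverse. Median percentiles moved to 32.7 for noncoding origin peaks of the spt7 mutant at 25 °C and to 61.6 for summits inside origins of the wild type at 25 °C. The cause was not tested. The settings around the ARS consensus were added after seeing the data and left all 6 ratios within their wide intervals. No paired analysis was possible because each list is the only one of its condition, and for the same reason no replicate could be left out. The counts of 0 to 11 summits around the consensus limit what can be read from it.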

Other observations

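The 23 origins without a summit in any list would have held 96.2 summits over the 6 lists from their base composition, and 8 of them held an exact ARS consensus sequence. After ARS307, the highest expected counts among them were those of ARS1118, with 6.92, and ARS230, with 6.45. ARS810 and ARS811, beside the CUP1 copies of chromosome 8, had expected counts of 6.08 each, and ARS1200-1 and ARS1200-2 in the ribosomal DNA had 5.93 each. Both pairs lie in repeated DNA, and the part of reads that map to several places was not tested.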
